A study of Mus musculus with 217 samples.

Results

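The angiopoietin and VEGF receptor axis of endothelial cells (ECs) was followed in ribosome-bound RNA from brain, lung and heart of RiboTag mice after injection of the bacterial endotoxin lipopolysaccharide (LPS). It was taken as 10 genes chosen by name out of the 52550 counted, namely the ligands Angpt1, Angpt2, Vegfa and Pgf, the receptors Tek, Tie1, Flt1 and Kdr, the co-receptor Nrp1 and the phosphatase Ptprb. All animals carried Cdh5CreERT2/+; Rpl22HA/+ on a C57BL/6J background, in which a tamoxifen-inducible Cre driven by the endothelial Cdh5 promoter switches on an HA-tagged ribosomal protein, and all received tamoxifen by gavage at 4 to 6 weeks of age. The treated mice were adults that received LPS at 10 mg per kg intraperitoneally and were killed 6, 24, 48, 72 or 168 hr later, while the 0 hr mice were controls that the study's methods describe as given PBS. Tagged ribosomes were pulled down from whole tissue with an antibody against HA, so any transcript of other cells that came along was counted as well. The runs of each library were summed, and 80 of 98 libraries were kept, 28 from brain, 24 from lung and 28 from heart, because the other 18 had under 3% of their reads on genes. In brain and in heart there were 5 libraries each at 0 and 6 hr, 6 at 48 hr and 4 each at the other times, and in lung 2 at 24 hr, 6 at 48 hr and 4 each at the others.

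Tek (also called Tie2) is the receptor tyrosine kinase of the angiopoietins. Angpt1, made mostly by mural and other perivascular cells, activates it and keeps endothelial junctions closed, whereas Angpt2, stored and released by ECs, competes with Angpt1 and is associated with a leaky, inflamed endothelium. Tie1 is an orphan relative that pairs with Tek, and Ptprb (VE-PTP) is an endothelial phosphatase that removes phosphate from Tek and other junctional partners. In the VEGF arm, Vegfa signals through Kdr (VEGFR2), with Nrp1 as co-receptor, while Flt1 (VEGFR1) binds Vegfa tightly with little signalling of its own, and Pgf, placental growth factor, binds Flt1 but not Kdr.

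Counts on genes per kept library ran from 284457 to 43417945, and levels are given as log2 CPM, the log2 of counts per 1000000 with a prior count of 2. Several libraries stood apart from their group over all genes. Brain replicate 6 at 6 hr correlated with the brain 0 hr mean at r = 0.979 but with the mean of its own time point at 0.927, and heart replicate 5 at 6 hr did so at 0.984 against 0.871, while the other 6 hr libraries of brain and heart correlated with their own time point at 0.955 to 0.986. In lung, replicates 1, 2 and 4 at 6 hr held 11248, 7473 and 3760 detected genes, and their correlations with the 6 hr mean were 0.634, 0.632 and 0.452. Replicate 4 of lung at 0 hr correlated at 0.860 with its own group and at 0.977 with the 168 hr group. Why these libraries stood apart was not tested, and calls of the axis genes are given with and without them. Groups were compared in edgeR by quasi-likelihood F tests (two-sided) that held library series, 4 patterns of the deposited names, as a further term, and Benjamini-Hochberg adjusted p over all genes tested was called under 0.05.

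The start regions of the genes were read as RefSeq gives them for GRCm38.p6, 250 bases before to 50 after the transcript start. The table held 9 promoters of 7 of the 10 genes, without Angpt1, Angpt2 and Ptprb. Those of Pgf (first start, chr12:85177264-85177563, minus strand), Tek (chr4:94739039-94739338, plus strand) and Kdr (chr5:75978406-75978705, minus strand) are shown, as the gene that rose most after LPS and a pair of receptors that fell. Capitals mark a match to the NF-kB consensus.
Pgf promoter: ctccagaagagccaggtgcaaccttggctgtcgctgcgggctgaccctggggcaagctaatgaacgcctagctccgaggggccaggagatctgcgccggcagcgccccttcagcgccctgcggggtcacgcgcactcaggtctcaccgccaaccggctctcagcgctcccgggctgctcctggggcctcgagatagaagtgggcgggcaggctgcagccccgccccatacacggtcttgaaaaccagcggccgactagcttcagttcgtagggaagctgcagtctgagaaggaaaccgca
Tek promoter: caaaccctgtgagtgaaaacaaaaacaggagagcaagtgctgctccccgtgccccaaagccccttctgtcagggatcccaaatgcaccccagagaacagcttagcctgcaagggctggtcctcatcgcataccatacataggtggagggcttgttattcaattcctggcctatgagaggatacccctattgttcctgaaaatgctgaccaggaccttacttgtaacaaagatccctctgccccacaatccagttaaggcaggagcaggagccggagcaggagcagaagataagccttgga
Kdr promoter: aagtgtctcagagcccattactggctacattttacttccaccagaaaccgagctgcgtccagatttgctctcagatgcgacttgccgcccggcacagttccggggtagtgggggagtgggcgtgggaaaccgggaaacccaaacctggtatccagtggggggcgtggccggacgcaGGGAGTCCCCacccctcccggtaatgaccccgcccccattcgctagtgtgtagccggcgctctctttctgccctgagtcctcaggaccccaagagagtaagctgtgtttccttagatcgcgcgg

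The NF-kB consensus was searched on both strands and matched in 8.46% of 32851 promoters of this length. Among the axis it matched in Kdr, at 74 bases before the start, in Flt1 and at the first start of Vegfa, and not in the windows of Pgf and Tek. The letters TGANTCA (AP-1 core, 7.81% of all promoters), CCGGAAGT (an ETS core, 3.89%) and GTAAACA (FOXO core, 3.65%) matched in none of the 9. ACGTG, the hypoxia response core, matched in 19.6% of all promoters and here at the second start of Vegfa only. CCNCNCCC, the KLF core, matched in 49.5% of all promoters and in all of these genes but Tek. A match is a description of the letters, not of a bound site.

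At 0 hr the question was how the axis differs between the ECs of the 3 tissues. Compared per exon length, as FPKM (counts per kilobase of exon and per 1000000 counts), every receptor gene had a higher median than every ligand in heart. There the median FPKM was 227 for Tie1, 187 for Kdr, 129 for Tek, 108 for Flt1, 97.2 for Nrp1 and 93.2 for Ptprb. The ligands of heart had a median FPKM of 12.5 for Angpt2, 9.18 for Pgf, 7.22 for Vegfa and 1.03 for Angpt1. The order of the receptors was another in brain, where Flt1 led with 72.6 FPKM, followed by Tek with 49.1, Tie1 with 30.6 and Ptprb with 21.2, and where Kdr had 11.9 and Nrp1 7.86. Among the brain ligands Angpt2, with 7.92 FPKM, was level with Nrp1, and Vegfa had 5.46, Pgf 4.05 and Angpt1 3.00. In lung Flt1 also led with a median of 206 FPKM, ahead of Tek with 111 and Nrp1 with 89.3, and Ptprb, Tie1 and Kdr lay close together at 39.0, 36.8 and 33.5, with library ranges that overlapped. Lung Vegfa, with a median of 21.3 FPKM, overlapped Kdr over its libraries, and Angpt2 had 9.91, Pgf 2.64 and Angpt1 2.30. Kdr was thus second of the 6 receptor genes in heart and below Flt1, Tek, Tie1 and Ptprb in brain and lung.

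**Figure D1:**
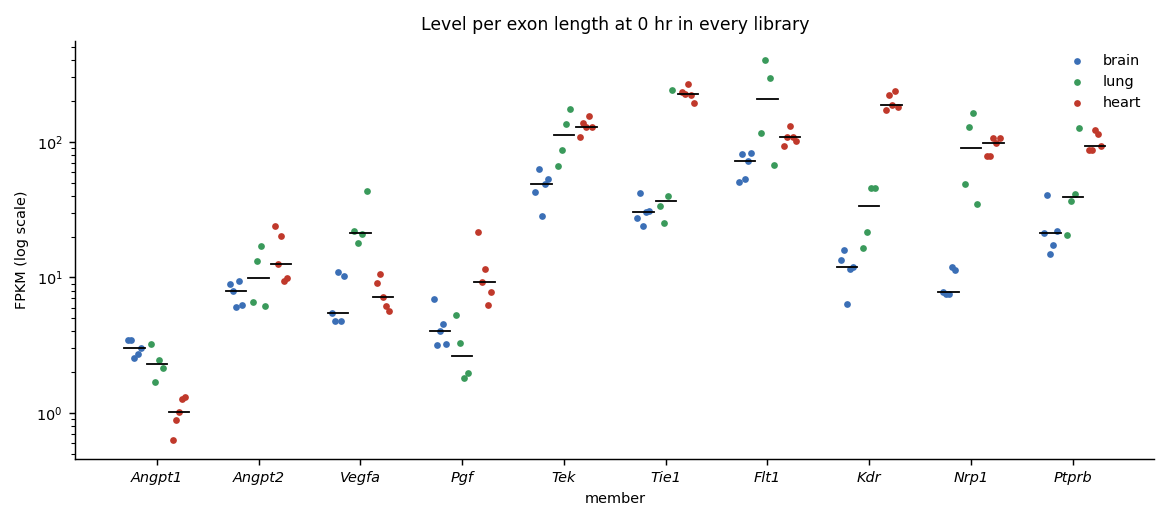
Levels of the 10 genes at 0 hr as FPKM per exon length, on a log axis, in brain (5 libraries), lung (4) and heart (5). Points are libraries and bars are group medians, and Kdr and Nrp1 are seen with every heart library above every brain library.

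Between tissues, 8 of the 10 genes differed between brain and heart, 7 lower and 1 higher in brain, beside 54.8% of 17730 genes called. Between brain and lung 7 of 10 were lower in brain (background 64.3%), and between lung and heart 5 of 10 differed, 3 lower and 2 higher in lung (background 61.1%). The shares of the axis genes were therefore not far from those of all genes. Codes in the deposited names, which may stand for the mouse, were shared with another tissue by 5 of 5 brain, 5 of 5 heart and 3 of 4 lung libraries at 0 hr, and the tests between tissues treat these libraries as independent. With that code as a block in place of library series, 8 genes were called between brain and heart, 5 between brain and lung, without Ptprb and Tie1, and 7 between lung and heart. General endothelial markers moved in the same direction, since 21 of 24 pan-endothelial genes were lower and 1 higher in brain than in heart, with a median log2 difference of −2.45, and 17 of 24 were lower in brain than in lung, with a median of −1.76. None of the 24 was at 0 in every library of a tissue at 0 hr. In such pull-downs from whole tissue, fewer cells of a type and less RNA per cell cannot be told apart, and the part of the endothelial share in these differences was not tested. Transcripts of other cells were present too, with 10 neuron markers summing to 1360 to 5647 CPM in brain.

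Kdr (ENSMUSG00000062960), the main signalling receptor for Vegfa, lies on chromosome 5 from 75932827 to 75978458 on the minus strand of GRCm38. Its 0 hr level was 10.60, 10.97, 10.72, 11.07 and 10.67 log2 CPM in the 5 heart libraries. In lung it was 7.21, 7.60, 8.68 and 8.69, and in brain 6.92, 7.17, 5.85, 6.70 and 6.75. The 3 tissues did not overlap. Brain lay below heart with a log2 difference of −4.16 ± 0.36 (standard error, edgeR adjusted p = 1.43e-07, 17.9-fold) and below lung with −1.51 ± 0.34 (edgeR adjusted p = 0.00126, 2.84-fold). Lung lay below heart with −2.65 ± 0.37 (edgeR adjusted p = 2.97e-05, 6.29-fold). Without lung replicate 4, which stood apart, the differences from lung were −1.29 ± 0.34 for brain (edgeR adjusted p = 0.00287) and −2.86 ± 0.38 for lung against heart (edgeR adjusted p = 9.65e-06). The call between brain and lung was lost with the libraries under 3% kept (edgeR adjusted p = 0.0826).

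Nrp1 (ENSMUSG00000025810, chromosome 8 from 128358604 to 128503363, plus strand, 80 bases of exon shared with Mir1903) was low in brain alone. Its brain libraries were at 6.27, 6.20, 6.22, 6.86 and 6.79 log2 CPM, against 9.58, 9.58, 10.03, 9.89 and 10.02 in heart and 8.91, 10.31, 10.65 and 8.41 in lung. Every brain library was below every library of the other tissues. The log2 difference was −3.41 ± 0.31 from heart (edgeR adjusted p = 2.10e-07, 10.6-fold) and −3.32 ± 0.32 from lung (edgeR adjusted p = 5.10e-07, 9.96-fold; −3.55 ± 0.25 without lung replicate 4), while lung and heart overlapped and did not pass the test.

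Of the angiopoietin receptors and their phosphatase, Tie1 was highest in heart, and Tek and Ptprb were lower in brain than in the other tissues. Tie1 (ENSMUSG00000033191, chromosome 4 from 118471191 to 118490061, minus strand) ran from 9.88 to 10.36 log2 CPM in heart and from 6.87 to 7.68 in brain, a log2 difference of −2.98 ± 0.49 (edgeR adjusted p = 9.87e-05). In lung it was at 7.36, 6.96 and 7.62 in 3 libraries and at 10.22 in replicate 4, the library that stood apart. Tie1 was lower in brain than in lung with −1.26 ± 0.51 (edgeR adjusted p = 0.0416) and in lung than in heart by −1.73 ± 0.53 (edgeR adjusted p = 0.0115), but the brain to lung call was lost without brain replicate 1, 2, 3 or 4 or lung replicate 4 (edgeR adjusted p up to 0.523) and the lung to heart call without lung replicate 3 (edgeR adjusted p = 0.0512). Without lung replicate 4 lung Tie1 was below heart with −2.80 ± 0.25 (edgeR adjusted p = 1.76e-07). Tek (ENSMUSG00000006386, chromosome 4 from 94739289 to 94874976, plus strand) ran from 7.06 to 8.23 in brain, 8.30 to 9.68 in lung and 9.00 to 9.51 in heart. Brain was therefore below both, with −1.55 ± 0.29 from heart (edgeR adjusted p = 0.000323) and −1.35 ± 0.30 from lung (edgeR adjusted p = 0.00119), or −1.06 ± 0.27 without lung replicate 4 (edgeR adjusted p = 0.00249). Lung and heart overlapped and did not pass (−0.20, edgeR adjusted p = 0.587), and the call between brain and lung was lost with the libraries under 3% kept (edgeR adjusted p = 0.108). Ptprb (ENSMUSG00000020154, chromosome 10 from 116275523 to 116389535, plus strand) ran from 7.63 to 9.08 in brain, 8.09 to 10.73 in lung and 10.17 to 10.67 in heart. Its difference was −2.27 ± 0.43 between brain and heart (edgeR adjusted p = 0.000322) and −1.28 ± 0.43 between brain and lung (edgeR adjusted p = 0.0165), and the latter was −0.55 ± 0.33 without lung replicate 4 (edgeR adjusted p = 0.142). Lung against heart, with −0.99 ± 0.45, did not pass (edgeR adjusted p = 0.0688).

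Flt1 (ENSMUSG00000029648, chromosome 5 from 147561604 to 147726011, minus strand), the receptor shared by Vegfa and Pgf, differed least between brain and heart among the receptors. It ran from 9.42 to 10.12 log2 CPM in brain, 10.31 to 10.80 in heart and 9.82 to 12.41 in lung. Brain was below lung with −1.63 ± 0.39 (edgeR adjusted p = 0.00189), or −1.94 ± 0.31 without lung replicate 4 (edgeR adjusted p = 5.22e-05), and lost the call with the libraries under 3% kept (edgeR adjusted p = 0.193), whereas the difference from heart of −0.73 ± 0.36 did not pass (edgeR adjusted p = 0.101) and neither did lung against heart with 0.90 ± 0.38 (edgeR adjusted p = 0.0531).

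The ligands each had a pattern of their own. Vegfa (ENSMUSG00000023951, chromosome 17 from 46016993 to 46032369, minus strand) was at 6.55, 6.28, 6.48 and 7.54 log2 CPM in lung, and no library of brain (4.35 to 5.55) or heart (4.61 to 5.50) reached that range. Lung exceeded heart by 1.72 ± 0.33 (edgeR adjusted p = 0.000459, 3.29-fold) and brain was below lung with −1.84 ± 0.34 (edgeR adjusted p = 0.000266, 3.57-fold). Without lung replicate 4 these values were 1.37 ± 0.30 and −1.53 ± 0.29 (edgeR adjusted p = 0.000798 and 0.000267). Markers of alveolar epithelium, a known source of Vegfa, summed to 3027 to 11331 CPM in lung, 24.1 to 66.0 in brain and 34.5 to 108 in heart over 12 genes, and their part in this difference was not tested. Angpt1 (ENSMUSG00000022309, chromosome 15 from 42424723 to 42676977, minus strand, with 737 bases of exon under Gm17473 on the opposite strand) was the ligand lowest in heart. It ran from 1.77 to 2.79 there, 3.16 to 4.08 in lung and 3.74 to 4.18 in brain, so that brain exceeded heart by 1.49 ± 0.26 (edgeR adjusted p = 0.000204) and lung exceeded heart by 1.18 ± 0.28 (edgeR adjusted p = 0.00218, and 1.19 ± 0.28 without lung replicate 4). Of 14 mural markers, whose cells are a known source of Angpt1, 7 were higher and 1 lower in brain than in heart (background 54.8%) and 8 higher and 3 lower in lung than in heart (61.1%), and their part was not tested. Pgf (ENSMUSG00000004791, chromosome 12 from 85166635 to 85177790, minus strand) ran from 4.20 to 5.97 in heart, 3.22 to 4.33 in brain and 2.43 to 3.95 in lung. Heart was the higher against brain, with −1.39 ± 0.34 (edgeR adjusted p = 0.00284), and against lung, with −1.92 ± 0.38 (edgeR adjusted p = 0.000552, and −1.72 ± 0.37 without lung replicate 4). Angpt2 (ENSMUSG00000031465, chromosome 8 from 18690263 to 18741562, minus strand) differed only between brain and heart, by −1.05 ± 0.34 (edgeR adjusted p = 0.0148), and that call was lost without heart replicate 1 or heart replicate 3 (edgeR adjusted p up to 0.064).

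After LPS the question was when and in which tissue each gene of the axis changed. The comparisons of a tissue share its 0 hr libraries and are not independent. Library series 4 held 0 libraries at 0 hr. In brain and in heart it held 2 each at 24, 48 and 168 hr and 1 at 72 hr. In lung it held 1 each at 24 and 72 hr and 2 each at 48 and 168 hr. Where such libraries are set against the 0 hr range, time and series cannot be told apart for them. In brain 6 of 10 genes changed at 6 hr, 2 rising and 4 falling, beside 6.44% of 19234 genes tested. At 24 hr 5 of 10 changed in brain, 1 rising and 4 falling (background 11.2%), at 48 hr 3, of which 1 rose and 2 fell (14.2%), and at 72 hr 1 rose (3.53%). In heart 7 of 10 changed at 6 hr, 2 rising and 5 falling, but there 42.8% of 16024 genes were called. Heart had 2 changes at 24 hr and 2 at 48 hr, 1 in each direction both times (background 16.2% and 4.19%), and 0 at 72 hr (0.275%). In lung 4 of 10 changed at 6 hr, 1 rising and 3 falling (4.83% of 17058 genes), and 0 at 24, 48 and 72 hr (0.375%, 0.598% and 0.193%).

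By 168 hr 0 of 10 genes differed from 0 hr in any tissue by edgeR (background 0% in brain, 0.0117% in lung and 0% in heart). At an unadjusted p under 0.05 there were 828 genes in brain and 680 in heart over all genes, of which 0 and 1 belonged to the axis, and over all genes DESeq2 called 2 in each tissue and limma-voom 0. In lung 0 axis genes had an unadjusted p under 0.05 at 168 hr.

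The 10 genes had median log2 fold changes at 6 hr of −0.77 (brain), −0.95 (lung) and −0.41 (heart), beside 0.0039, −0.42 and −0.050 for all genes tested. Their medians were −0.87, −1.43 and −0.52 at 24 hr, and −0.54, −0.52 and −0.42 at 48 hr. Over the 15 comparisons with 0 hr the direction of the calls did not vary within a gene, except for Tie1. Pgf rose in 5 and Angpt2 in 4, while Nrp1 fell in 5, Tek in 4, Ptprb in 4, Flt1 in 2, Kdr in 2 and Vegfa in 1. Tie1 fell in 2 and rose in 1, and Angpt1 had 0 calls.

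The libraries at 6 hr decide much of the size of these changes. Library series 1 held 1 library per tissue at 6 hr, which were brain replicate 6, heart replicate 5 and lung replicate 4. They carried the same code in the deposited names, which may stand for the mouse, so they may come from 1 animal. Without these 3 libraries, a choice made after the data were seen, 14.3% of all genes were called in brain, 58.4% in heart and 3.95% in lung at 6 hr. Of the axis, 7 genes were then called in brain (2 rose, 5 fell), 8 in heart (2 rose, 6 fell) and 2 in lung (1 rose, 1 fell).

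**Figure D2:**
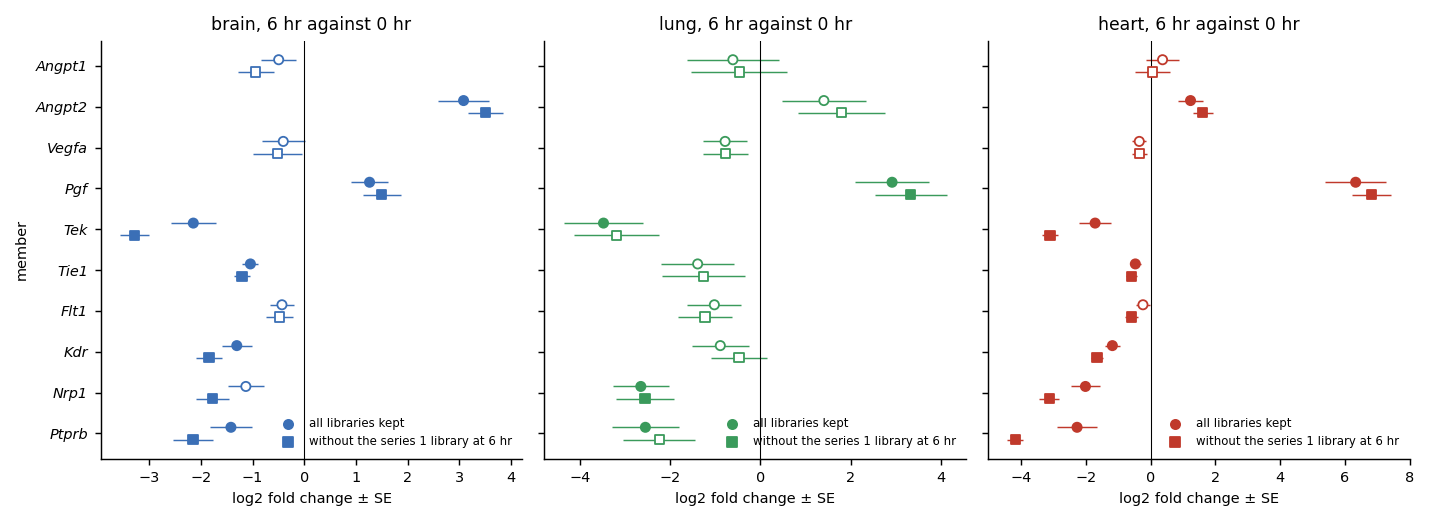
Log2 fold change of the 10 genes at 6 hr against 0 hr in brain, lung and heart, with the standard error. Circles are fits of all kept libraries, squares fits without the library series 1 library at 6 hr, and filled symbols had an edgeR adjusted p under 0.05, with Tek, Nrp1 and Ptprb below 0 and Pgf above 0 in each tissue.

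Angpt2, the antagonist of Angpt1 at Tek, rose most of the axis in brain. Its brain libraries were at 5.04, 4.87, 4.49, 5.12 and 4.53 log2 CPM at 0 hr and at 7.51, 8.77, 7.60, 7.75 and 4.95 at 6 hr. Of the 6 hr libraries 4 were above every 0 hr library, and the one that was not is replicate 6. The log2 fold change was 3.08 ± 0.49 (edgeR adjusted p = 0.000345, 8.48-fold), and 3.51 ± 0.34 without that library (edgeR adjusted p = 7.68e-08). At 24 hr all 4 brain libraries, with 7.65, 6.83, 8.14 and 7.90, were above the 0 hr range. The log2 fold change was then 2.30 ± 0.50 (edgeR adjusted p = 0.0048, 4.93-fold).

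At 48 hr brain Angpt2 ran from 5.12 to 7.79 with a median of 6.92, a log2 fold change of 1.57 ± 0.47 (edgeR adjusted p = 0.0276). The call was lost without 0 hr replicate 1, 2 or 3 or 48 hr replicate 3 (edgeR adjusted p up to 0.0777). It was also lost under limma-voom and under edgeR with a replicate block (adjusted p up to 0.0716). Here the library series differed, since the 48 hr minus 0 hr difference was 1.96 within series 1 and 0.43 within series 2. At 72 hr the 4 libraries were at 4.94, 5.44, 5.34 and 6.66 and at 168 hr at 4.49, 5.55, 5.09 and 5.20, with no call. In heart Angpt2 was at 6.48, 5.54, 6.21, 5.12 and 5.20 at 0 hr and at 7.05, 7.42, 6.73, 7.48 and 5.18 at 6 hr. It rose by 1.23 ± 0.39 (edgeR adjusted p = 0.0145, 2.35-fold), or 1.61 ± 0.31 without replicate 5 (edgeR adjusted p = 0.000116), and missed the threshold without 0 hr replicate 4 (edgeR adjusted p = 0.0506) and with only 0 hr and 6 hr fitted (edgeR adjusted p = 0.122).

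Lung Angpt2 could not be judged at 6 hr. It was at 4.60, 5.62, 5.98 and 4.52 log2 CPM at 0 hr, and its 6 hr counts were 45, 0, 10331 and 0 in replicates 1 to 4, of which the third alone was a deep library with many genes detected. The log2 fold change of 1.41 ± 0.93 did not pass. With only lung libraries of at least 15000 detected genes, also chosen after the data were seen, it was 2.95 ± 0.69 (edgeR adjusted p = 0.0435) and rested on replicate 3 as the only 6 hr library, which that fit assumes to vary like the other groups. Both lung libraries at 24 hr, with 7.64 and 8.41, were above the 0 hr range, without passing the test.

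Angpt1, the activating ligand, had no call after LPS. In brain it was at 4.18, 4.18, 3.74, 3.84 and 3.97 log2 CPM at 0 hr and at 2.84, 2.87, 3.32 and 2.73 at 24 hr. All 4 libraries at 24 hr were below the 0 hr range. The 24 hr libraries of heart, with −0.25, 0.85, 0.61 and 0.06, were also all below the heart 0 hr range of 1.77 to 2.79. Mural markers at 24 hr had a summed level in brain of 715 to 1209 CPM against 1319 to 3569 at 0 hr. Their median log2 fold change there was −0.78 (0 of 14 called, background 11.2%). In heart 1 of 14 rose and 4 fell at 24 hr (background 16.2%), with a median of −0.80. The summed levels in heart overlapped, with 302 to 570 CPM against 327 to 575 at 0 hr. Vtn in brain and Des in heart made up 78.1% and 64.7% of the summed medians at 24 hr. The part of the mural markers in the Angpt1 levels was not tested. At 48 hr heart Angpt1 split widely, from −0.69 to 3.56 (median 1.23). In lung at 6 hr its counts were 83, 0, 133 and 0, too few in 2 libraries for a level, since a count of 0 allows up to 3 counts.

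The ratio of Angpt2 to Angpt1 per exon length sums up this pair, as a description with no test. In brain the median log2 ratio was 1.26 at 0 hr (range 1.06 to 1.79), 5.18 at 6 hr (1.18 to 5.49), 5.33 at 24 hr (4.48 to 5.68) and 4.74 at 48 hr (1.66 to 5.63). It stood at 2.60 at 72 hr and at 1.40 at 168 hr, where the range of 1.27 to 1.56 lay within that of 0 hr. In heart the ratio was 3.80 before LPS and 4.23 at 6 hr, reached 7.80 at 24 hr, and then went down through 5.66 (48 hr) and 3.08 (72 hr) to 3.67 in the 168 hr group. The heart 24 hr libraries, with 5.33 to 8.12, were all above the 0 hr range of 2.89 to 5.22. These 24 hr ratios rest on low Angpt1 counts of 7, 41, 27 and 24, and those of heart at 48 hr on counts of 6 to 354. In lung the median was 2.16 at 0 hr and 6.52 at 24 hr, and the 6 hr value of 0.50 rests on libraries with few or 0 counts of both genes.

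**Figure D3:**
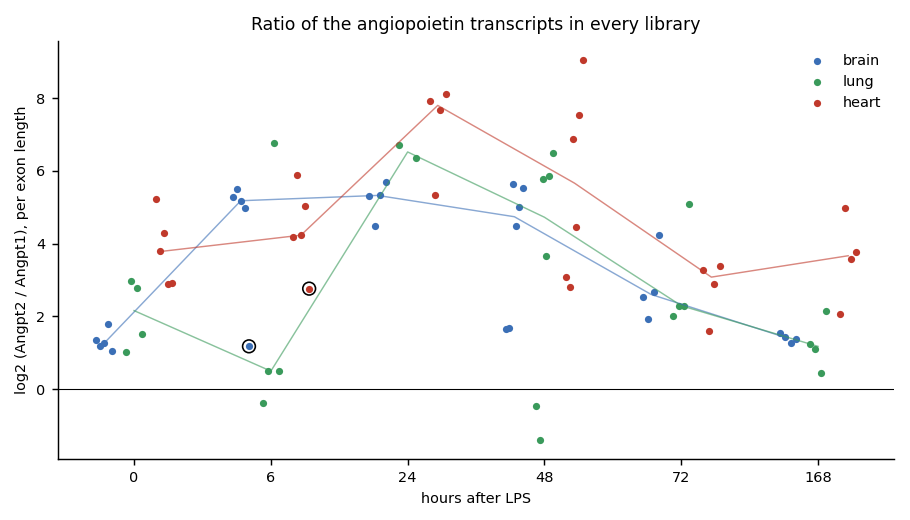
Log2 ratio of Angpt2 to Angpt1 per exon length in each library by hours after LPS (time points equally spaced) in brain, lung and heart, with lines through the medians and rings around brain replicate 6 and heart replicate 5 at 6 hr. In brain the 24 hr libraries lie between 4.48 and 5.68 and those of 0 hr between 1.06 and 1.79.

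Tek, the receptor of both angiopoietins, whose start region held none of the motifs searched, fell in all 3 tissues at 6 hr. Brain libraries were at 7.66, 8.23, 7.06, 7.85 and 7.96 log2 CPM at 0 hr and at 4.36, 4.54, 4.20, 4.86 and 7.58 at 6 hr. Apart from replicate 6, every 6 hr library was below every 0 hr library. The log2 fold change was −2.15 ± 0.44 (edgeR adjusted p = 0.00282, 4.43-fold), and −3.29 ± 0.28 without replicate 6 (edgeR adjusted p = 1.62e-08). At 24 hr brain Tek was at 6.04, 5.68, 4.97 and 4.88, still below the 0 hr range, with a log2 fold change of −2.09 ± 0.49 (edgeR adjusted p = 0.00831, 4.27-fold). From 48 hr on, with 5.96 to 7.70 and a median of 6.80, then 7.32, 7.82, 7.88 and 7.39 at 72 hr, it had no call.

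In heart Tek was at 9.00, 9.34, 9.24, 9.51 and 9.24 log2 CPM at 0 hr. At 6 hr it was at 5.75, 6.10, 6.17, 6.91 and 9.63, the last being replicate 5, which was above every 0 hr library while the other 4 were below them all. Tek fell with a change of −1.71 ± 0.49 on the log2 scale (edgeR adjusted p = 0.00862, 3.28-fold), and without replicate 5 the change was −3.11 ± 0.26 (edgeR adjusted p = 9.91e-10). All 4 heart libraries at 24 hr, with 8.43, 8.08, 7.80 and 7.36, were below the 0 hr range, and Tek passed there without the series 1 libraries of 6 hr, at −1.06 ± 0.25 (edgeR adjusted p = 0.00338), but not with them. In lung Tek counts at 6 hr were 0, 53, 3833 and 0, which in the deep replicate 3 is 6.97 log2 CPM. The lung 0 hr libraries were at 8.30, 8.67, 9.33 and 9.68. The lung change of −3.48 ± 0.89 (edgeR adjusted p = 0.0213) had an edgeR adjusted p of 0.0523 without replicate 4, and was also lost without 0 hr replicate 3 (up to 0.0671). Without 6 hr replicate 1 it was −2.98 ± 0.71 (edgeR adjusted p = 0.0193) and without 6 hr replicate 2 −3.53 ± 1.00 (edgeR adjusted p = 0.0469).

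Tie1, the partner of Tek, fell less and then rose in brain. It was at 7.09, 7.68, 6.87, 7.23 and 7.24 log2 CPM in brain at 0 hr and at 5.63, 5.97, 6.07, 5.77 and 6.91 at 6 hr, of which 4 were below the 0 hr range. The change of −1.04 ± 0.15 (edgeR adjusted p = 0.000199, 2.06-fold) became −1.20 ± 0.16 without replicate 6 (edgeR adjusted p = 4.72e-06). At 24 hr Tie1 was back at 7.30, 6.94, 7.02 and 7.14, inside the 0 hr range, although Tek was then still low. At 72 hr it was at 7.66, 7.78, 8.42 and 7.77, a rise of 0.73 ± 0.16 (edgeR adjusted p = 0.00852, 1.66-fold) that had an edgeR adjusted p of 0.0569 without replicate 3 and 0.176 with no library series term. Of the 24 pan-endothelial markers 5 rose and 0 fell in brain at 72 hr (background 3.53%), with a median log2 fold change of 0.52 and a summed level of 5566 to 8822 CPM against 3661 to 6211 at 0 hr, and their part in the rise of Tie1 was not tested. In heart Tie1 was at 10.16, 10.12, 10.36, 10.08 and 9.88 at 0 hr and at 9.04, 9.75, 9.61, 9.57 and 10.10 at 6 hr, a change of −0.47 ± 0.17 (edgeR adjusted p = 0.0311, 1.39-fold) that was lost without 0 hr replicate 3 or 4 or 6 hr replicate 1 or 4 (edgeR adjusted p up to 0.112) and in 3 other settings (up to 0.207). Without replicate 5 it was −0.59 ± 0.17 (edgeR adjusted p = 0.00552). In lung Tie1 ran from 4.70 to 8.24 at 6 hr and from 6.96 to 10.22 at 0 hr, with no call.

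Ptprb, the phosphatase of Tek, fell in each tissue at 6 hr. In heart it was at 10.18, 10.17, 10.67, 10.58 and 10.28 log2 CPM at 0 hr and at 5.91, 6.58, 6.03, 6.60 and 10.71 at 6 hr. Of these, 4 libraries were far below every 0 hr library, and replicate 5 was above them all. The change of −2.27 ± 0.63 (edgeR adjusted p = 0.00688, 4.83-fold) was −4.18 ± 0.25 without replicate 5 (edgeR adjusted p = 1.26e-11), the steepest fall among the 10 genes in that fit. At 24 hr heart Ptprb was at 8.85, 9.34, 9.83 and 9.41, all below the 0 hr range, with −1.21 ± 0.23 in the fit without the series 1 libraries of 6 hr (edgeR adjusted p = 0.000621) and no call with them.

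In brain Ptprb was at 8.14, 9.08, 7.63, 7.86 and 8.20 log2 CPM at 0 hr, at 5.24, 6.83, 5.26, 5.92 and 8.40 at 6 hr and at 6.17, 6.18, 6.32 and 6.24 at 24 hr. Its log2 fold change was −1.42 ± 0.41 at 6 hr (edgeR adjusted p = 0.0364), −2.15 ± 0.39 without replicate 6 (edgeR adjusted p = 0.000327), and −1.72 ± 0.49 at 24 hr (edgeR adjusted p = 0.0261). The 24 hr libraries lay close together and below all of 0 hr. The 6 hr call was lost in 7 of 10 fits that left out a 0 hr or 6 hr library (all but brain replicates 1 and 3 of 0 hr and replicate 6 of 6 hr). It was also lost with no library series term or only the compared times fitted (edgeR adjusted p up to 0.174). The 24 hr call was lost without 0 hr replicate 2 or 24 hr replicate 1 or 2 (edgeR adjusted p up to 0.104). Lung Ptprb was at 8.09, 8.93, 9.11 and 10.73 at 0 hr and at 4.43, 8.54, 6.58 and 5.82 at 6 hr. Its change of −2.55 ± 0.75 (edgeR adjusted p = 0.0437) did not pass without replicate 4 (edgeR adjusted p = 0.109), nor without 0 hr replicate 2, 3 or 4 or 6 hr replicate 1 (edgeR adjusted p up to 0.112), and was −3.72 ± 0.77 without 6 hr replicate 2 (edgeR adjusted p = 0.00841).

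**Figure D4:**
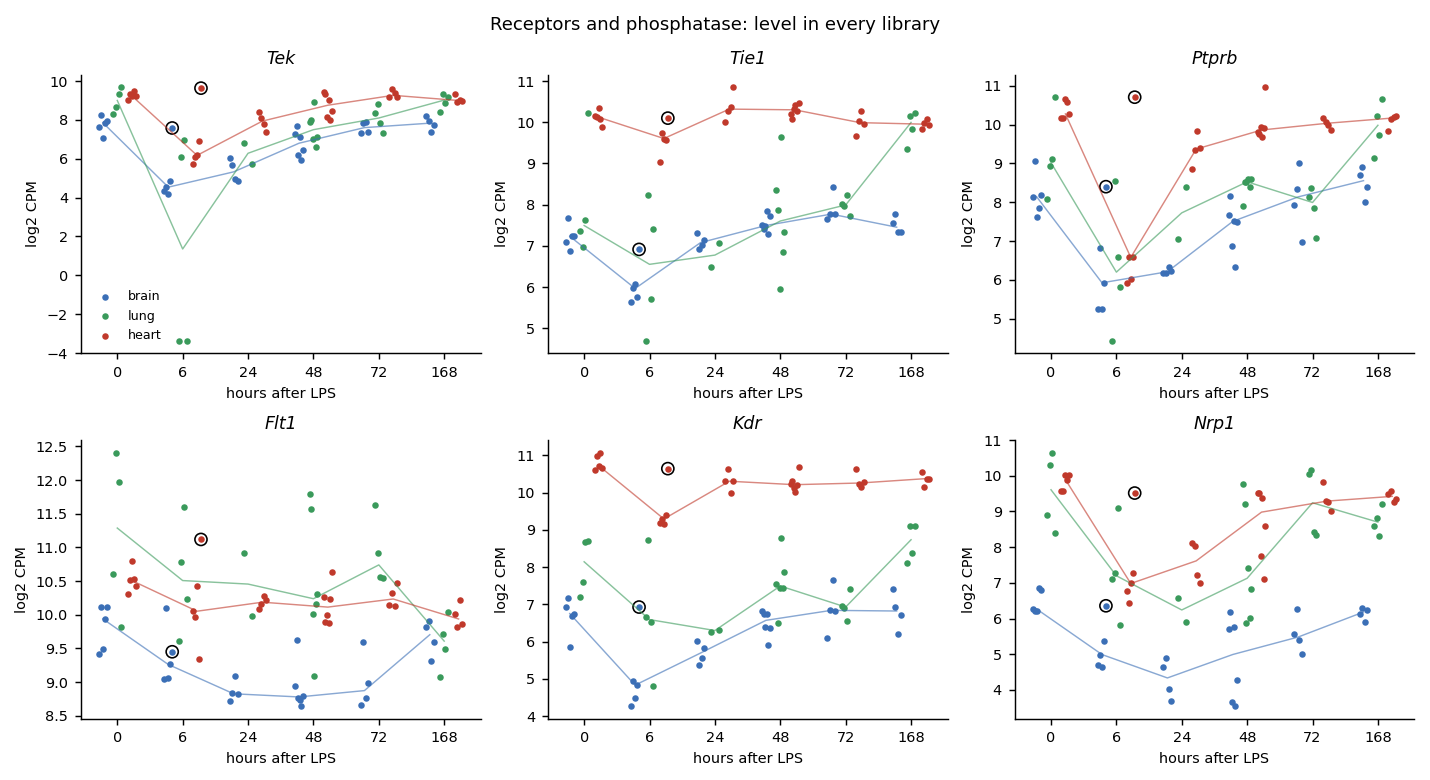
Levels of Tek, Tie1, Ptprb, Flt1, Kdr and Nrp1 (log2 CPM) in each library by hours after LPS (time points equally spaced), with brain in blue, lung in green and heart in red, lines through the medians and rings around brain replicate 6 and heart replicate 5 at 6 hr. Most of the ringed points lie near the 0 hr level while the other 6 hr points of Tek, Ptprb, Kdr and Nrp1 lie below it in brain and heart.

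Kdr, the main signalling VEGF receptor, with an NF-kB consensus match in its start region, fell at 6 hr in heart and brain. In heart it was at 10.60, 10.97, 10.72, 11.07 and 10.67 log2 CPM at 0 hr and at 9.18, 9.29, 9.14, 9.40 and 10.64 at 6 hr. All but replicate 5 were below the 0 hr range. The change was −1.18 ± 0.24 (edgeR adjusted p = 0.000721, 2.27-fold), or −1.66 ± 0.18 without replicate 5 (edgeR adjusted p = 3.21e-08). At 24 hr heart Kdr was at 10.31, 10.64, 9.98 and 10.30 and at 48 hr at 10.01 to 10.68 with a median of 10.21. These passed only without the series 1 libraries of 6 hr, with −0.50 ± 0.17 (edgeR adjusted p = 0.0352) and −0.53 ± 0.15 (edgeR adjusted p = 0.031). Heart libraries below the whole 0 hr range numbered 3 of 4 at 24 hr, 5 of 6 at 48 hr, 3 of 4 at 72 hr and 4 of 4 at 168 hr, with no call at the last 2 times.

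In brain Kdr was at 6.92, 7.17, 5.85, 6.70 and 6.75 log2 CPM at 0 hr and at 4.28, 4.94, 4.49, 4.83 and 6.93 at 6 hr. Again 4 of 5 were below the 0 hr range. The log2 fold change was −1.31 ± 0.29 (edgeR adjusted p = 0.00578, 2.47-fold), or −1.84 ± 0.25 without replicate 6 (edgeR adjusted p = 8.17e-06), and the call was lost with no library series term (edgeR adjusted p = 0.123). At 24 hr it was at 6.02, 5.38, 5.57 and 5.82 with no call in all kept libraries, and −0.86 ± 0.25 without the series 1 libraries of 6 hr (edgeR adjusted p = 0.0255). At 48 hr 0 of 6 brain libraries were below the 0 hr range. Lung Kdr ran from 4.82 to 8.72 at 6 hr, from 7.21 to 8.69 at 0 hr, and had no call.

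Nrp1, the co-receptor of Kdr, was called at 6 and 24 hr in heart and at 24 and 48 hr in brain. In heart it was at 9.58, 9.58, 10.03, 9.89 and 10.02 log2 CPM at 0 hr, at 6.77, 6.45, 6.98, 7.28 and 9.52 at 6 hr and at 8.12, 8.02, 7.21 and 7.00 at 24 hr. All 5 libraries at 6 hr and all 4 at 24 hr were below the 0 hr range. Its log2 fold change was −2.01 ± 0.46 at 6 hr (edgeR adjusted p = 0.00186, 4.04-fold), −3.13 ± 0.31 without replicate 5 (edgeR adjusted p = 1.38e-08), and −1.94 ± 0.52 at 24 hr (edgeR adjusted p = 0.0171, 3.84-fold). Without heart replicate 2 of 24 hr the latter had an edgeR adjusted p of 0.0654.

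In brain Nrp1 was at 6.27, 6.20, 6.22, 6.86 and 6.79 log2 CPM at 0 hr and at 4.69, 4.99, 4.64, 5.36 and 6.36 at 6 hr. The 6 hr change of −1.13 ± 0.36 missed the threshold (edgeR adjusted p = 0.0567) and was −1.77 ± 0.32 without replicate 6 (edgeR adjusted p = 0.000287). At 24 hr the libraries were at 4.65, 4.89, 4.02 and 3.69, a change of −1.67 ± 0.42 (edgeR adjusted p = 0.0125, 3.17-fold). At 48 hr they ran from 3.56 to 6.19 with a median of 4.99, all 6 below the 0 hr range, and the change was −1.05 ± 0.34 (edgeR adjusted p = 0.0414), lost without 0 hr replicate 1, 2, 4 or 5 or 48 hr replicate 3, 6 or 7 (edgeR adjusted p up to 0.0918) and with only the compared times fitted or a replicate block (up to 0.196). Within library series the 48 hr difference was −1.51 in series 1 and −0.68 in series 2.

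Lung Nrp1 was at 8.91, 10.31, 10.65 and 8.41 log2 CPM at 0 hr and at 7.11, 7.28, 9.09 and 5.82 at 6 hr. The lung change was −2.65 ± 0.62 (edgeR adjusted p = 0.013, 6.28-fold), and −2.56 ± 0.64 without replicate 4 (edgeR adjusted p = 0.022), the receptor gene whose lung call remained in that fit. Without 6 hr replicate 1 or 2 it was −2.35 ± 0.64 and −2.42 ± 0.64 (edgeR adjusted p = 0.0384 and 0.0337). It was lost under 4 of the other settings, with only such deeper libraries among them (edgeR adjusted p up to 0.458). With only lung libraries of at least 15000 detected genes the calls were at 24 hr, −2.40 ± 0.56 (edgeR adjusted p = 0.0376), and at 48 hr, −2.03 ± 0.44 (edgeR adjusted p = 0.0219).

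Flt1, the high-affinity receptor for Vegfa and Pgf, moved little. In brain it was at 9.42, 10.11, 9.49, 9.94 and 10.12 log2 CPM at 0 hr, at 9.04 to 10.10 at 6 hr and at 8.72, 8.83, 9.09 and 8.82 at 24 hr. All 4 libraries of 24 hr were below the 0 hr range. The change was −0.82 ± 0.27 at 24 hr (edgeR adjusted p = 0.0465, 1.76-fold) and −0.76 ± 0.22 at 48 hr (edgeR adjusted p = 0.0256, 1.69-fold), when the libraries ran from 8.65 to 9.63 (median 8.78). The 24 hr call was lost without 0 hr replicate 1, 2, 4 or 5 or 24 hr replicate 1, 2 or 5 (edgeR adjusted p up to 0.163), and the 48 hr call without 0 hr replicate 2 (edgeR adjusted p = 0.0973). In other settings these 2 calls were lost with an edgeR adjusted p up to 0.156 and 0.119. In heart Flt1 ran from 10.31 to 10.80 at 0 hr and was at 10.05, 9.97, 10.42, 9.34 and 11.12 at 6 hr. It had no call there with all kept libraries, and −0.59 ± 0.19 without replicate 5 (edgeR adjusted p = 0.00986).

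Pgf, the ligand that binds Flt1 but not Kdr, showed the largest change of the axis, in heart. Of the motifs searched, its first start region held the KLF core alone. Heart libraries were at 5.97, 4.74, 5.08, 4.20 and 4.52 log2 CPM at 0 hr and at 11.35, 11.47, 11.70, 10.62 and 3.95 at 6 hr. In 4 libraries Pgf was far above every 0 hr library, and in replicate 5 it was below them all. The log2 fold change was 6.33 ± 0.94 (edgeR adjusted p = 3.94e-05, 80.5-fold), and 6.82 ± 0.60 without replicate 5 (edgeR adjusted p = 2.04e-09). Per exon length its median went from 9.18 FPKM at 0 hr to 899 at 6 hr, above the median of Tie1, the highest of the 10 genes at 0 hr.

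Heart Pgf was above the 0 hr range in every library at 24 and 48 hr. At 24 hr it was at 10.36, 10.20, 10.97 and 11.55 log2 CPM, a rise of 4.90 ± 0.88 (edgeR adjusted p = 0.00169, 29.9-fold). At 48 hr it ran from 6.63 to 10.74 with a median of 8.61, all 6 libraries above the 0 hr range, a rise of 3.34 ± 0.82 (edgeR adjusted p = 0.0211, 10.1-fold). The 48 hr call was lost without 0 hr replicate 2 or 4 or 48 hr replicate 3 (edgeR adjusted p up to 0.079). It was also lost under limma-voom and under edgeR with a replicate block (adjusted p up to 0.189). The 48 hr difference was 3.26 within library series 1 and 2.09 within series 2. At 72 hr it was at 4.74, 6.45, 6.83 and 8.45 and at 168 hr at 3.93, 5.99, 5.65 and 6.00, with no call. Median FPKM went from 572 at 24 hr to 177 at 48 hr, 34.6 at 72 hr and 19.6 at 168 hr.

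In brain Pgf was at 4.33, 3.22, 3.57, 3.73 and 3.26 log2 CPM at 0 hr and at 4.58, 5.90, 4.70, 3.98 and 4.17 at 6 hr, so that 3 of 5 were above the 0 hr range. It rose by 1.26 ± 0.37 (edgeR adjusted p = 0.0348), or 1.50 ± 0.37 without replicate 6 (edgeR adjusted p = 0.00588), and the call was lost without 0 hr replicate 2, 3, 4 or 5 or 6 hr replicate 2 or 3 (edgeR adjusted p up to 0.161). The call was also lost under 4 of 11 other settings, namely only the compared times fitted, limma-voom, no library series term and a replicate block. At 24 hr brain Pgf, with 4.72, 5.09, 5.63 and 5.27, was above the 0 hr range in all 4 libraries and passed in the fit without the series 1 libraries of 6 hr, at 1.14 ± 0.37 (edgeR adjusted p = 0.0414). In lung Pgf was at 3.95, 3.28, 2.43 and 2.55 at 0 hr, and its 6 hr counts were 32, 155, 1266 and 0, or 4.15, 7.62 and 5.37 log2 CPM in the first 3 replicates. The rise of 2.92 ± 0.82 (edgeR adjusted p = 0.0342, 7.56-fold) was 3.33 ± 0.80 without replicate 4 (edgeR adjusted p = 0.018), and was lost without 0 hr replicate 2, 3 or 4 or 6 hr replicate 2, where it was 1.62 ± 0.70 (edgeR adjusted p = 0.193). Without 6 hr replicate 1 the rise was 3.40 ± 0.79 (edgeR adjusted p = 0.0161). Over 12 other settings the lung change ran from 0.079 to 3.40 on the log2 scale, and the call was lost under 5.

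Vegfa, the ligand of Kdr and Flt1, fell once. In heart at 48 hr its libraries ran from 3.60 to 4.47 log2 CPM with a median of 4.24, against 5.28, 5.50, 4.96, 4.73 and 4.61 at 0 hr. All 6 were below the 0 hr range. The change was −0.98 ± 0.21 (edgeR adjusted p = 0.00722, 1.97-fold), and within library series −1.46 in series 1 and −0.65 in series 2. In brain Vegfa was at 4.55, 4.37, 5.55, 4.35 and 5.45 at 0 hr and at 3.38, 3.79, 3.85 and 2.92 at 24 hr, all below the 0 hr range but with no call. In lung its 6 hr libraries were at 5.93, 6.01, 5.96 and 6.40, close together in a group where other genes of the axis had 0 counts, and it had no call.

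**Figure D5:**
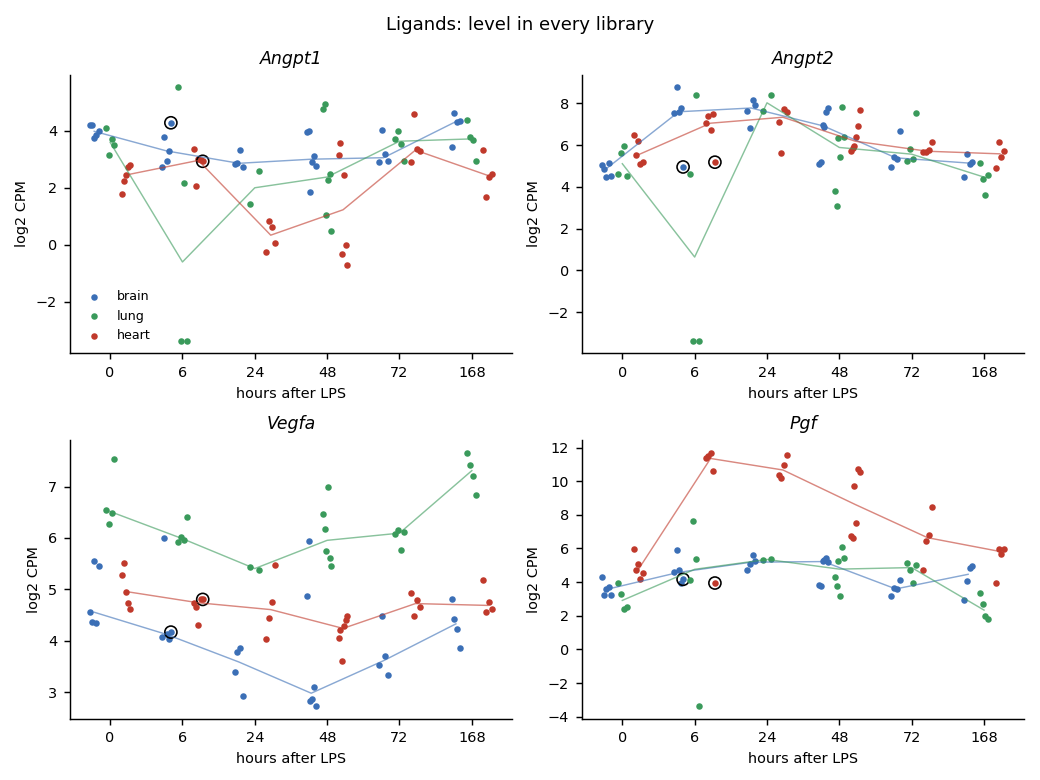
Levels of Angpt1, Angpt2, Vegfa and Pgf (log2 CPM) in each library by hours after LPS (time points equally spaced), with brain in blue, lung in green and heart in red, lines through the medians and rings around brain replicate 6 and heart replicate 5 at 6 hr. Pgf in heart goes from 4.20 to 5.97 at 0 hr to 10.62 to 11.70 in 4 of 5 libraries at 6 hr.

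The members not past the threshold covered a wide range where the groups were spread. In lung the fold changes of the 6 such genes at 6 hr ran from −1.39 to 1.41 on the log2 scale, and those of all 10 genes from −2.27 to 1.97 at 24 hr and from −1.56 to 1.57 at 48 hr. In brain the 4 genes without a call at 6 hr ran from −1.13 to −0.41, the 5 at 24 hr from −0.92 to 1.16, the 7 at 48 hr from −0.64 to 1.01 and the 10 at 168 hr from −0.33 to 0.36. In heart the 3 at 6 hr ran from −0.35 to 0.37, the 8 at 24 hr from −1.47 to 0.82, the 8 at 48 hr from −0.80 to 0.36 and the 10 at 168 hr from −0.94 to 1.02.

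Whether the tissues responded differently was tested as an interaction in 1 fit of all 3 tissues. Codes in the deposited names, which may stand for the mouse, were shared with another tissue by 5 of 5 brain, 5 of 5 heart and 4 of 4 lung libraries at 6 hr. At 48 hr they were shared by 6 of 6 in each tissue. The fit treats these libraries as independent, and no block of the code was tried in it. At 6 hr 1 of 10 genes differed between brain and heart, beside 0.161% of 19856 genes, and 0 of 10 between brain and lung (6.65%) or lung and heart (11.0%). The gene was Pgf, whose rise was smaller in brain than in heart with a difference of −4.80 ± 1.00 on the log2 scale (edgeR adjusted p = 0.0216). The call was lost in 7 of 32 fits that left out a library, namely brain 6 hr replicate 1, 3 or 4 or heart 0 hr replicate 2, 3, 4 or 5 (edgeR adjusted p up to 0.0666). It was also lost with ComBat then limma, limma-voom or edgeR with no library series term (adjusted p up to 0.33). Without the series 1 libraries of 6 hr this difference was −5.03 ± 0.78 (edgeR adjusted p = 0.000103), and Pgf then also rose less in lung than in heart, with −3.00 ± 0.82 (edgeR adjusted p = 0.0121), where all kept libraries gave −2.68 ± 1.04 (edgeR adjusted p = 0.0844).

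The rise of Angpt2 was larger in brain than in heart by 1.85 ± 0.93 on the log2 scale but did not pass over all genes. Apart from Pgf, the differences between the 6 hr responses of brain and heart ran from −0.90 to 1.85 and those between brain and lung from −0.88 to 1.52, with 0 calls for any of them. Pgf between brain and lung, with −2.12 ± 1.04, did not pass either (edgeR adjusted p = 0.2). Kdr and Nrp1 were called in some tissues and not in others, which is not a tested difference between tissues. At 48 hr 0 of 10 genes differed between tissues (background 1.28% for brain against lung, 0.116% for brain against heart and 0.322% for lung against heart), and the difference for Pgf between brain and heart was −2.73 ± 0.93.

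General endothelial markers changed at 6 hr as well, in both directions in brain and in heart. Of 24 pan-endothelial markers, 6 fell and 3 rose in brain (median log2 fold change −0.37), 13 fell and 2 rose in heart (−0.95) and 6 fell in lung (−1.30). Over all genes tested 6.44% were called in brain, 42.8% in heart and 4.83% in lung. In brain the summed level of the list ran from 3661 to 6211 CPM at 0 hr and from 3459 to 4584 at 6 hr, and in heart from 15953 to 18416 and from 12497 to 17674. In lung it ran from 18487 to 26891 at 0 hr and from 2979 to 26709 at 6 hr. At 24 hr 1 fell and 3 rose in brain (background 11.2%) and 2 fell and 1 rose in heart (16.2%), while Nrp1 was then low in both. The part of the endothelial share in the falls of the receptors was not tested.

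Markers of other cells that could carry members were looked at beside these results. Angpt1 is known from mural cells, and of the mural markers 0 of 14 passed the test in brain at 6 hr (background 6.44%). Their summed level ran from 1319 to 3569 CPM in brain at 0 hr and from 671 to 4203 at 6 hr. Of the neutrophil list, 2 of 11 tested genes rose in brain at 6 hr (background 6.44%) and 8 of 10 in heart (42.8%). Most of the summed level was Lcn2, with a median of 5268 CPM in brain and 5098 in heart at 6 hr against 21.2 and 15.6 at 0 hr. S100a9 went from a median of 0.395 to 27.0 CPM and S100a8 from 0.142 to 11.5 in heart between 0 and 6 hr, and S100a8 from 8.37 to 24.1 in brain. In lung 8 of 12 neutrophil genes rose at 6 hr (background 4.83%), with a summed level of 60.2 to 231 CPM at 0 hr and 169 to 6137 at 6 hr, and S100a9 went from a median of 59.9 to 1492. The defining neutrophil gene Ly6g was at a median of 0 CPM at 6 hr in brain, in heart and also in lung, where its highest library had 5.69. In brain the medians of Ngp, Ltf, Camp, Csf3r and Retnlg were lower at 6 hr than at 0 hr, while those of S100a9, Cxcr2, Mmp8 and Mmp9 were higher. In heart the cardiomyocyte markers summed to 4464 to 8321 CPM at 0 hr and 5944 to 11279 at 6 hr, and in lung to 91.8 to 178 and 158 to 2526. Their part in the results was not tested.

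Beside the 10 genes, 60 other genes of the same signalling were listed, of which 59 were measured in brain and in lung and 58 in heart. At 6 hr 16 of 59 changed in brain (5 rose, 11 fell, background 6.44%), 16 of 59 in lung (4 rose, 12 fell, 4.83%) and 37 of 58 in heart (17 rose, 20 fell, 42.8%). Their medians of −0.05, −0.39 and −0.06 were close to those of all genes. At 24 hr 15 changed in brain, 1 in lung and 19 in heart (background 11.2%, 0.375% and 16.2%). At 48 hr 14, 1 and 6 changed (14.2%, 0.598% and 4.19%), at 72 hr 7, 0 and 0 (3.53%, 0.193% and 0.275%), and at 168 hr 0 in each tissue.

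By role, the hypoxia and VEGF-responsive genes of the list held 7 rises and 5 falls among 15 in heart at 6 hr, where 42.8% of all genes were called. The transcription factors of the list held 1 rise and 4 falls among 11 in brain and 2 rises and 4 falls among 11 in heart. Adm, adrenomedullin, a vasodilator peptide induced by hypoxia, rose by 2.24 ± 0.38 on the log2 scale in brain (edgeR adjusted p = 0.000529) and by 4.10 ± 1.05 in lung (edgeR adjusted p = 0.0226). Esm1, a secreted product of VEGF-stimulated ECs, rose by 2.35 ± 0.63 in brain (edgeR adjusted p = 0.0205). Itgb3, an integrin that interacts with Kdr, rose by 4.78 ± 0.76 in heart (edgeR adjusted p = 7.61e-05) and by 3.39 ± 0.82 in lung (edgeR adjusted p = 0.0153). Hif1a, the oxygen-regulated transcription factor, rose by 3.15 ± 0.47 in heart (edgeR adjusted p = 3.94e-05).

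The steepest falls among these other genes were in receptors, transcription factors and an adaptor. Aplnr, the apelin receptor, changed by −2.36 ± 0.56 in brain (edgeR adjusted p = 0.00937) and −2.86 ± 0.69 in heart (edgeR adjusted p = 0.0028). Sox17, an arterial transcription factor, changed by −1.70 ± 0.34 in brain (edgeR adjusted p = 0.00252). Hey1, a Notch target, changed by −2.32 ± 0.90 in heart (edgeR adjusted p = 0.041) and −4.98 ± 0.88 in lung (edgeR adjusted p = 0.002). Grb14, an adaptor protein, changed by −6.04 ± 0.95 in lung (edgeR adjusted p = 0.000946), where 3 of 4 libraries had few genes detected. The lung values of Adm, Itgb3 and Hey1 rest on the same libraries. Counts and changes of these other genes are given for all kept libraries only, those that stood apart included.

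The genes whose level went most like that of a receptor were sought over the means of the 18 groups of tissue and time among 9028 genes, which share libraries and depth, so that the values are a description. The 3 genes nearest to Tek were Fgd5 (Pearson r = 0.978), Thsd1 (0.969) and Castor1 (0.963). Nearest to Kdr were Rbp7 (0.978), Dock1 (0.973) and Cd300lg (0.971). Angpt2 had lower values, with Tiparp (0.936), Plk3 (0.908) and Psmd3 (0.905).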

How the data were processed

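Alignment to mm10 was done by the authors with STAR 2.4.2 and counting per gene with HTSeq 0.6.1 (versions from the submitters' processing notes), and the authors deposited these raw counts per sequencing run, neither normalized nor filtered. Strand setting and annotation release of the counting are not given in the sources used here, so genes with overlapping exons may share reads. Here 217 runs were summed to 98 libraries by labelled tissue, time and replicate, rows for reads on no single gene were kept out of totals, and the 18 libraries under 3% of reads on genes were left out. Labels do not say which libraries come from separate mice, so p-values and standard errors measure the spread between libraries only, and floors cover counting error only. Replicates were compared and none repeated another.

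Counts were fitted in R 4.3.3 with edgeR 4.0.16 (filterByExpr by group with a minimum count of 10, TMM scaling, two-sided quasi-likelihood F test, group plus library series), per tissue for LPS, over the 0 hr libraries for tissues and in 1 fit of all for interactions. Library series is the pattern of the deposited names and not a labelled batch. The standard error was derived from F as |log2 fold change|/√F. The authors used ComBat and limma-voom, tried here as alternatives (limma 3.58.1, sva 3.50.0) beside DESeq2 1.42.0, RLE scaling, no filter, a prior count of 0.5, a replicate block, a block of the code that tissues share in the deposited names (0 hr comparisons only), and each replicate left out. Simulated data were first run through the edgeR LPS fit of each tissue, brain against lung at 0 hr and the interaction of brain and heart. In the brain LPS fit limma-voom, ComBat and DESeq2 were run on them too. The other alternatives were not simulated, and the simulated counts held no difference between library series. FPKM used union exon lengths of the GENCODE annotation of GRCm38, which may not be the authors' release.

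The 10 genes, the other gene lists and the tests were chosen with earlier results of these data known. Fold change, standard error and adjusted p are printed for each of the 10 genes past an adjusted p of 0.05, the others by range. Of the other pathway genes, the 2 largest rises and 2 largest falls per tissue at 6 hr whose mean log2 CPM was 3 or more are named, and the 3 genes most like Tek, Kdr and Angpt2. Fits without the 6 hr libraries of library series 1, and with only lung libraries of at least 15000 detected genes, were added after the data were seen.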

Additional observations from a re-analysis of the deposited data

Results flagged for a closer look

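Of 170 combinations of gene, tissue and time with 4 to 10 libraries, 12 held a library far from the others by Dixon's test at the 95% level, where chance gives about 1 in 20. Heart replicate 5 at 6 hr accounted for 4 of them, with Pgf at 3.95 log2 CPM (next library 10.62), Kdr at 10.64 (9.40), Nrp1 at 9.52 (7.28) and Ptprb at 10.71 (6.60). Brain replicate 6 at 6 hr accounted for 2, with Tek at 7.58 (4.86) and Kdr at 6.93 (4.94). This library and heart replicate 5 at 6 hr share a code in the deposited names, which may stand for the mouse. The other 6 were each in a library of their own. They were Vegfa at 5.99 in brain replicate 2 at 6 hr (next 4.17), Pgf at 3.93 in heart replicate 1 at 168 hr (5.65) and Tie1 at 8.42 in brain replicate 3 at 72 hr (7.78). The rest were Flt1 at 9.63 in brain replicate 2 at 48 hr (8.94), Ptprb at 7.91 in lung replicate 1 at 48 hr (8.40) and Ptprb at 10.97 in heart replicate 7 at 48 hr (9.95).

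The Pgf response at 6 hr differed between brain and heart by −4.80 on the log2 scale in the interaction test (edgeR adjusted p = 0.0216), with Pgf higher than every 0 hr library in 3 of 5 brain and 4 of 5 heart libraries. The call was lost with ComBat then limma, limma-voom or no library series term.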

How the results depend on the processing

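No result reversed under any alternative. The number of LPS calls among the 10 genes was 15 in brain (11 to 22 over the alternatives), 11 in heart (10 to 16) and 4 in lung (0 to 6). The lung count was 0 with only 0 hr and the compared time point fitted, 0 with the libraries under 3% kept, 2 with at least 1000000 counts per library and 2 without the 6 hr libraries of library series 1, and 6, all falls, with ComBat then limma. At 0 hr the 7 genes called between brain and lung were 2 with the libraries under 3% kept. The count of genes with different responses went from 1 to 0 between brain and heart with ComBat then limma, limma-voom or no library series term, and to 2 with no low-count filter. Between brain and lung it went from 0 to 2 with ComBat and 1 with no filter, and between lung and heart from 0 to 4 with ComBat, 2 with no filter and 1 without the 6 hr libraries of series 1. The cause of these shifts was not tested.

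Leaving out each replicate gave 8 to 19 LPS calls in brain (8 without brain 0 hr replicate 2, 19 without brain 48 hr replicate 2), 8 to 16 in heart (8 without heart 0 hr replicate 4, 16 without heart 6 hr replicate 5) and 1 to 4 in lung (1 without lung 0 hr replicate 3). At 0 hr it gave 7 to 9 genes between brain and heart, 5 to 7 between brain and lung and 4 to 7 between lung and heart, and for the responses 0 to 2 between brain and heart, 0 to 1 between brain and lung and 0 to 1 between lung and heart.

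Replicate numbers did not pair libraries, since deviations of the same number correlated at −0.54 to 0.66. With the replicate number as a block (replicate block) the LPS calls were 11 in brain, 10 in heart and 4 in lung, the 0 hr calls 9, 7 and 6 for brain against heart, brain against lung and lung against heart, and the response calls 1, 0 and 0. Brain Pgf at 6 hr, Angpt2 and Ptprb at 24 hr and Angpt2 and Nrp1 at 48 hr, and heart Pgf at 48 hr, lost their calls under the block.

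LPS calls that held under every alternative and with each replicate left out were Angpt2, Tek and Tie1 in brain at 6 hr, Tek and Nrp1 in brain at 24 hr, Pgf, Kdr, Nrp1, Ptprb and Tek in heart at 6 hr, Pgf in heart at 24 hr and Vegfa in heart at 48 hr. At 0 hr they were Angpt1, Kdr, Nrp1, Pgf, Ptprb, Tek and Tie1 between brain and heart, Nrp1 and Vegfa between brain and lung, and Angpt1, Kdr, Pgf and Vegfa between lung and heart. Outside the left-out replicates, the alternatives lost most calls in lung at 6 hr, with Ptprb lost under 7, Tek under 6, Pgf under 5 and Nrp1 under 4 of 12. RLE scaling moved the median of all genes by 0.31 in lung at 6 hr, with 766 genes rising and 393 falling against 436 and 388. Over all genes the calls at 6 hr ran from 466 to 2760 in brain, 49 to 8361 in lung and 3673 to 9332 in heart, against 1238, 824 and 6854. Leaving out library series 3 changes nothing, since the 3% limit already removes it.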
